A study of Mus musculus with 24 samples.

Results

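Yap1 and Wwtr1 (the coactivators YAP and TAZ), 3 of the Tead genes that recruit them to DNA, and 4 of their best known target genes were followed through 6 mouse cell populations. The 9 genes, Yap1, Wwtr1, Tead1, Tead2, Tead4, Ctgf, Cyr61, Ankrd1 and Amotl2, were chosen by symbol out of 23283 genes in the count table, and each had its own row. They were measured in 24 libraries, each made from cytosolic RNA after 1000 cells had been sorted per well. The labels give no strain, genotype or age, and no construct behind the factor induction.

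Granulocyte monocyte progenitors (GMP), committed blood progenitors, were grown in serum-free medium with cytokines that included SCF, IL3 and Flt3L. They were sorted by how far they had diluted the division dye CFSE in 24 hours, into 5 fast and 3 slow libraries. Induced pluripotent stem cells (iPS), which no longer needed the reprogramming factors, were sorted for an Oct4 reporter and gave 4 libraries, grown in stem cell medium without doxycycline. Mouse embryonic fibroblasts (MEF) in which 2 ug/ml doxycycline had induced the Yamanaka factors for 6 days, in the same stem cell medium, were sorted after 48 hours of CFSE dilution into 4 fast and 4 slow cycling libraries. Untreated bulk MEF in plain serum medium gave the last 4. Their labels call them unsorted and slow cycling, although the protocol has cells of all libraries sorted into wells. Fast and slow MEF thus differed from bulk MEF in factors, medium, dye and gating by dye at once.

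YAP and TAZ bind no DNA themselves. In the nucleus they join TEAD proteins and switch on genes such as Ctgf, Cyr61 and Ankrd1, and in fibroblasts they are known to respond to stiff substrates, cell spreading and serum. The Hippo kinases restrain them by phosphorylating YAP and TAZ, which then stay in the cytoplasm, so the RNA level of Yap1 or Wwtr1 is not a measure of their activity, which was not assayed here.

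Total counts ran from 4937453 to 18648132 in the 16 MEF and iPS libraries and from 2098846 to 4411526 in the 8 GMP libraries. Rn45s and Lars2, which collect ribosomal RNA reads, took 19.9% to 48.86% of GMP counts and 3.05% to 11.73% elsewhere. Fast GMP replicate 1 stood apart, with counts in 18402 genes. Marker levels were set beside the labels. The summed level of 7 fibroblast markers was 97.1 to 355 CPM in iPS, 1870 to 4760 CPM in fast MEF, 39100 to 76300 CPM in slow MEF and 21000 to 38800 CPM in bulk MEF. That of 6 pluripotency markers was 1230 to 2220 CPM in iPS, 224 to 508 CPM in fast MEF, 5.38 to 20.7 CPM in slow MEF and 0.657 to 9.56 CPM in bulk MEF, and that of 8 myeloid markers 4920 to 26800 CPM in fast GMP and 8800 to 16500 CPM in slow GMP. CPM is the count per 1000000 counts of a library, scaled with TMM factors over all 24 libraries. Whether replicates are separate animals or cultures is not stated, and each p-value therefore covers library to library spread, which may be technical.

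Yap1 RNA was present in every MEF and iPS library, with no called difference between these groups. It stood at 31.4, 85.9, 72.2 and 74.8 CPM in iPS, 70.7, 95.3, 79.9 and 72.9 CPM in fast MEF, 70.4, 197, 101 and 75.3 CPM in slow MEF, and 80.4, 102, 122 and 67.6 CPM in bulk MEF. These 4 groups overlapped, slow MEF replicate 2 being the highest library and iPS replicate 1 the lowest. Yap1 passed the threshold (edgeR quasi-likelihood test, Benjamini-Hochberg adjusted p under 0.05 over all genes tested) in none of the 5 comparisons among them, each of 4 against 4 libraries. Its log2 fold change was -0.62 ± 0.35 (SE) in fast against slow MEF (adjusted p = 0.206), 0.28 ± 0.36 in slow against bulk MEF and -0.31 ± 0.28 in fast against bulk MEF. It was -0.28 ± 0.32 in iPS against fast MEF and -0.54 ± 0.36 in iPS against bulk MEF. A change of the size of these errors was not detectable at this spread. Without slow MEF replicate 2, the slow against bulk value was -0.15 (adjusted p = 0.826).

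Wwtr1, the paralogue of Yap1, was low in iPS. Its level was 2.73, 11.5, 13.9 and 5.77 CPM in iPS, 83.2, 70.9, 72.0 and 76.6 CPM in fast MEF, 65.7, 77.2, 86.1 and 99.0 CPM in slow MEF, and 101, 114, 90.7 and 127 CPM in bulk MEF. Every iPS library lay below every MEF library. Wwtr1 fell in iPS, with a log2 fold change of -3.70 ± 0.49 against bulk MEF (adjusted p = 0.00025) and -3.16 ± 0.47 against fast MEF (adjusted p = 0.000724). The fold change was -0.26 ± 0.24 in fast against slow MEF, -0.37 ± 0.27 in slow against bulk MEF and -0.60 ± 0.24 in fast against bulk MEF (adjusted p = 0.0719), although no fast MEF library reached a bulk one. Per kilobase of annotated exon, Yap1 made up 90.4% ± 3.71 of the RNA of this pair in iPS, 54.5% ± 4.9 in fast MEF, 58.4% ± 11.7 in slow MEF and 49.2% ± 9.35 in bulk MEF (SD, n = 4 each).

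**Figure D1:**
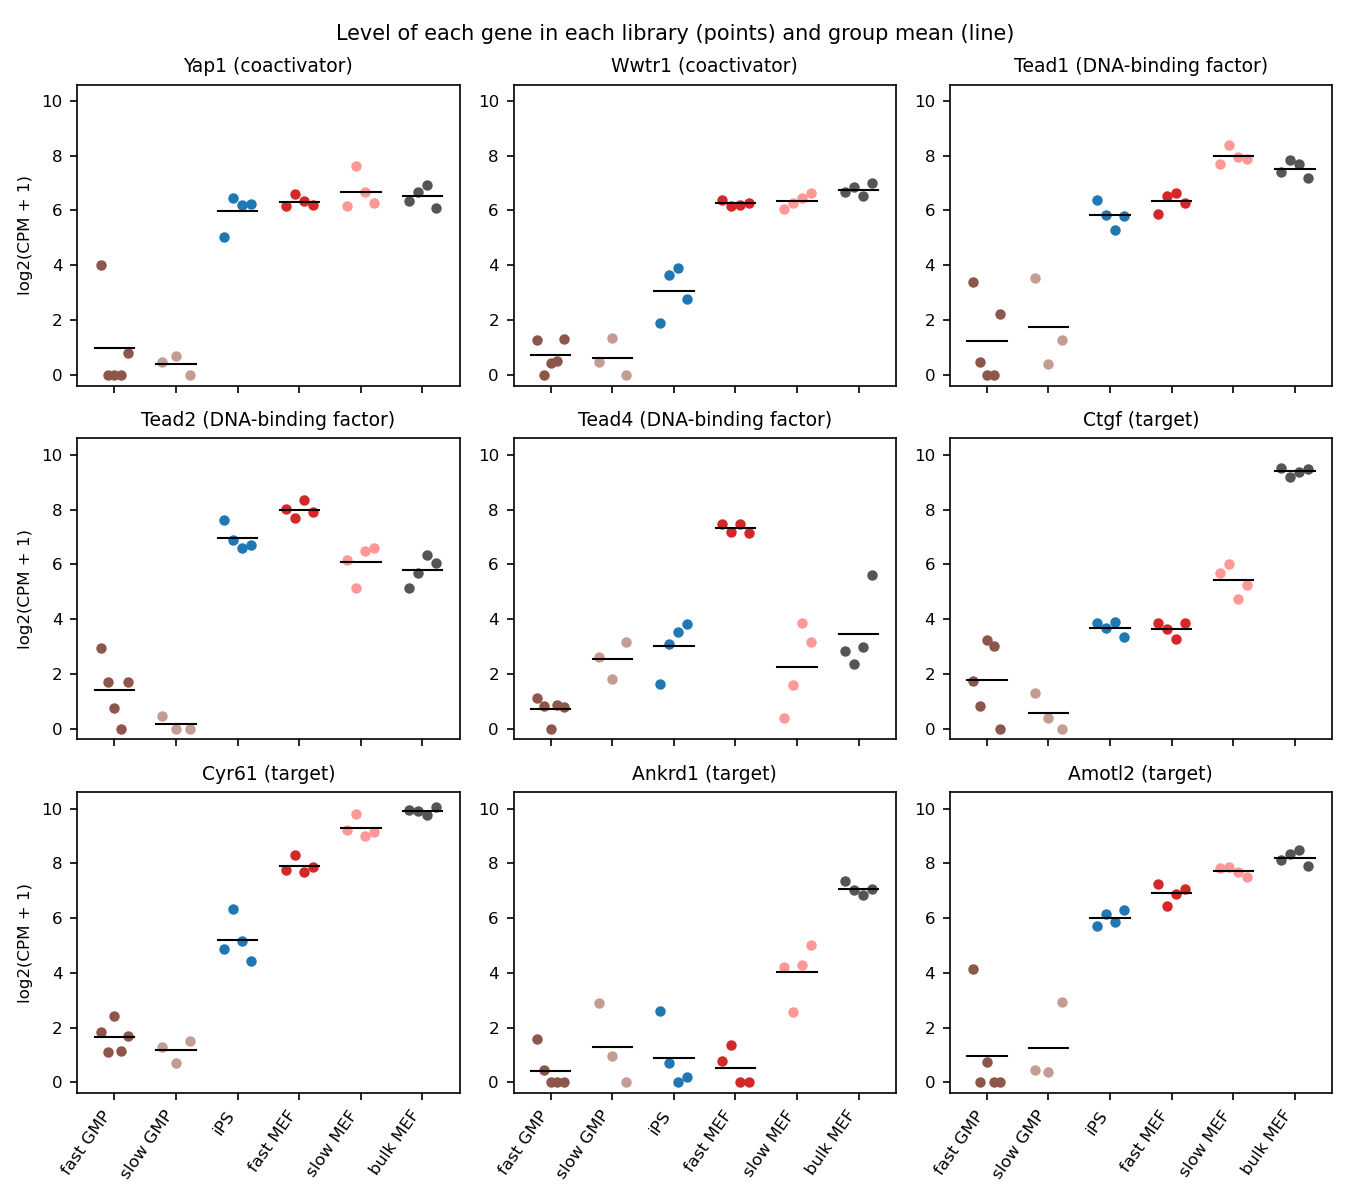
Level of each of the 9 genes in each of the 24 libraries, as log2(CPM + 1), with groups from fast GMP to bulk MEF on the horizontal axis; each point is a library and each line the mean of the plotted values of a group. Yap1 groups overlap over iPS and MEF, Tead4 stands out in fast MEF, and the 4 targets are highest in bulk MEF.

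In fast MEF, Tead4 and Tead2 rose and Tead1 fell. TEAD proteins share a DNA-binding domain, and Tead2 and Tead4 are known from early mouse embryos, where Tead4 is needed for the trophectoderm. Tead4 was at 2.12, 7.43, 10.5 and 13.1 CPM in iPS, 175, 143, 177 and 139 CPM in fast MEF, 0.317, 2.03, 13.4 and 7.98 CPM in slow MEF, and 6.17, 4.07, 6.85 and 48.2 CPM in bulk MEF. All 4 fast MEF libraries lay above every other library of the series, and bulk MEF replicate 4 was the only library between 13.4 and 139 CPM. Tead4 rose by 4.62 ± 0.85 in fast against slow MEF (adjusted p = 0.00257) and by 3.22 ± 0.74 in fast against bulk MEF (adjusted p = 0.00686). Slow MEF replicate 1 held 3 counts of Tead4, so it entered the fit of fast against slow MEF through its level in fast MEF. The rise against bulk MEF was 4.70 without bulk MEF replicate 4, and that against slow MEF 5.39 without slow MEF replicate 3. Tead4 fell in iPS against fast MEF (-4.26 ± 0.50, adjusted p = 0.000178). Against bulk MEF it was at -0.98 ± 0.84 in iPS (adjusted p = 0.365) and at -1.43 ± 1.04 in slow MEF (adjusted p = 0.41), and both values lost their sign without bulk MEF replicate 4 (0.48 and 0.08).

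Tead2 also rose in fast MEF. It stood at 197, 116, 95.4 and 104 CPM in iPS, 258, 206, 325 and 241 CPM in fast MEF, 71.0, 33.8, 89.6 and 96.6 CPM in slow MEF, and 33.7, 50.5, 79.8 and 65.2 CPM in bulk MEF. Fast MEF libraries were all above the rest, while slow and bulk MEF overlapped. The rise was 1.70 ± 0.34 in fast against slow MEF (adjusted p = 0.00413) and 2.10 ± 0.32 in fast against bulk MEF (adjusted p = 0.000696). In iPS Tead2 fell against fast MEF (-1.03 ± 0.29, adjusted p = 0.017). It was 1.12 ± 0.36 higher in iPS than in bulk MEF (adjusted p = 0.0268), but the call was lost when the first iPS library was left out (0.79, adjusted p = 0.0957). The same held without bulk MEF replicate 1 (0.93, adjusted p = 0.0656) and without bulk MEF replicate 2 (1.07, adjusted p = 0.0583). With the replicate number as a block, the adjusted p was 0.0698. With all 24 libraries in 1 fit, Tead2 passed in fast against bulk MEF only (adjusted p = 0.0969 in fast against slow MEF, 0.343 in iPS against fast MEF and 0.238 in iPS against bulk MEF).

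Tead1, the family member best known from muscle and heart, moved the other way. Its level was 81.7, 56.0, 37.8 and 55.2 CPM in iPS, 57.5, 92.2, 98.4 and 76.9 CPM in fast MEF, 205, 331, 248 and 232 CPM in slow MEF, and 168, 227, 206 and 145 CPM in bulk MEF. Slow and bulk MEF overlapped with each other and lay above all fast MEF and iPS libraries, which overlapped too. Tead1 fell in fast against slow MEF (-1.78 ± 0.27, adjusted p = 0.000864), in fast against bulk MEF (-1.28 ± 0.28, adjusted p = 0.0051) and in iPS against bulk MEF (-1.73 ± 0.31, adjusted p = 0.00133). With all 24 libraries in 1 fit these calls were lost (adjusted p = 0.246, 0.381 and 0.166 in the same comparisons). In slow against bulk MEF it was at 0.47 ± 0.25 (adjusted p = 0.248), and in iPS against fast MEF at -0.51 ± 0.31 (adjusted p = 0.214).

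The makeup of Tead RNA was compared per kilobase of annotated exon. Levels were summed over Tead1, Tead2, Tead4 and the fourth family gene, Tead3. Exon lengths were 10.1 kb for Tead1, 3.5 kb for Tead2, 3.08 kb for Tead3 and 3.59 kb for Tead4, so dividing by length lowers the Tead1 share. Before this division, slow MEF averaged 254 CPM of Tead1 and 72.8 CPM of Tead2. Whether reads of the oligo-dT primed cDNA cover the full length of each gene was not tested, and the shares depend on it. The sum was 45.6 ± 13.5 CPM per kb in iPS, 138 ± 21.6 in fast MEF, 70.3 ± 19.0 in slow MEF and 56.8 ± 8.33 in bulk MEF (SD, n = 4 each), and the fast MEF libraries did not overlap with those of any other group. Tead4 made up 5.82% ± 3.73 of it in iPS, 32.4% ± 4.0 in fast MEF, 2.0% ± 1.77 in slow MEF and 7.13% ± 8.29 in bulk MEF. Tead2 made up 79.2% ± 4.89 in iPS, 53.3% ± 2.83 in fast MEF, 29.4% ± 8.87 in slow MEF and 28.7% ± 8.89 in bulk MEF. Tead1 took 12.5% ± 1.35 in iPS, 5.96% ± 1.6 in fast MEF, 38.4% ± 15.2 in slow MEF and 33.6% ± 9.57 in bulk MEF. Tead3 fell in iPS against bulk MEF (-4.13 ± 0.44, adjusted p = 6.67e-05) and was at -1.05 ± 0.56 in fast against slow MEF (adjusted p = 0.178). It was named to complete the family.

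**Figure D2:**
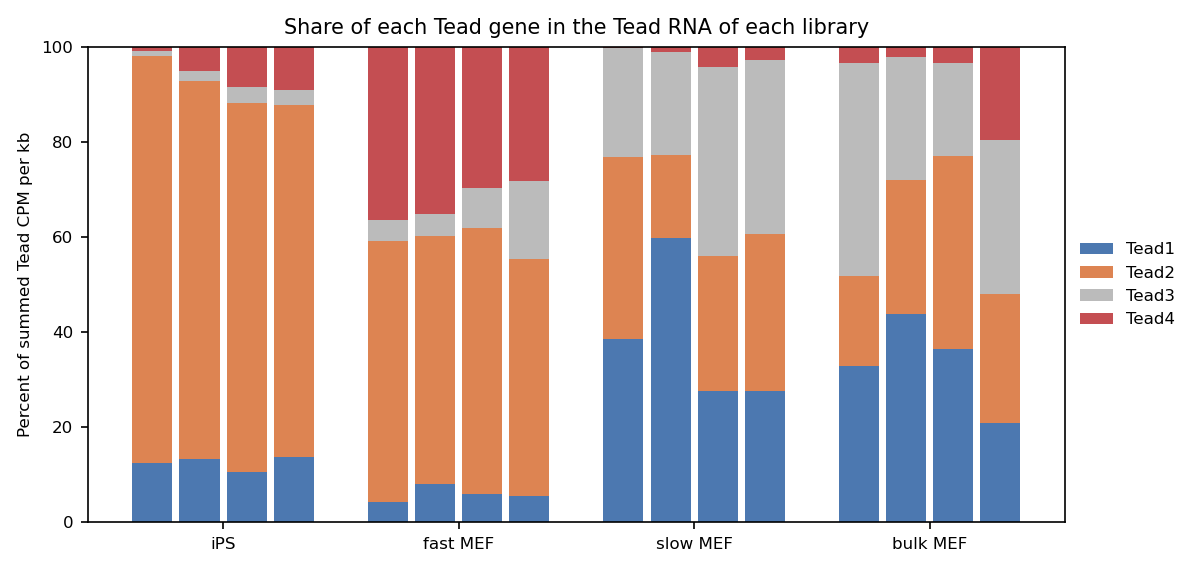
Share of Tead1, Tead2, Tead3 and Tead4 (colours) in the summed Tead level per kilobase of annotated exon, in percent, with 1 bar per library and replicates 1 to 4 from left to right in each of 4 groups. Tead2 fills 74.1% to 85.8% of the iPS bars and 49.9% to 56.1% of the fast MEF bars, and Tead4 takes 28.2% to 36.4% in fast MEF.

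Summed markers of some other cell types were also higher in fast MEF than in slow and bulk MEF. A sum does not show how many of its markers moved. The summed level of 4 keratinocyte markers was 6570 to 11600 CPM in fast MEF, 34.4 to 549 CPM in slow MEF and 1.53 to 13.0 CPM in bulk MEF. All 4 had counts in both fast and slow MEF. The sum of 4 mesothelial markers was 269 to 363 CPM in fast MEF, 12.9 to 33.9 CPM in slow MEF and at most 4.16 CPM in bulk MEF. That of 5 endothelial markers was 97.7 to 126 CPM in iPS, 26.1 to 34.6 CPM in fast MEF, 1.5 to 3.56 CPM in slow MEF and 1.72 to 8.76 CPM in bulk MEF, with no count of Cdh5 in slow and bulk MEF. In bulk RNA, more cells of a type and more RNA per cell cannot be told apart, and the part of these markers in the Tead levels was not tested.

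By group mean, the 4 targets were highest in bulk MEF and, among MEF, lowest in the fast gate. Ctgf and Cyr61 encode secreted matricellular proteins of the CCN family, Ankrd1 a nuclear ankyrin repeat protein of strained muscle, and Amotl2 a junction protein that binds YAP and restrains it. TEAD proteins bind the element GGAATG, which reads CATTCC on the other strand. Of the 9 genes, 6 had a promoter in the RefSeq table used, and in 5 of these the 250 bases before the start held this element on at least 1 strand, as did 12.6% of the 32851 promoters in the table. The genes were picked for their known link to TEAD, so this share is a description. The promoters of 3 targets are shown because these genes fell together in fast MEF and each window holds the element. Ctgf, the remaining target, fell in fast MEF too but had no promoter in this table, nor had Tead1 and Tead4. They are written 5′ to 3′ on the strand of the gene (RefSeq, GRCm38.p6), with each match in capitals. They lie at chr19:36119845-36120094 (Ankrd1, minus strand), chr3:145649986-145650235 (Cyr61, listed as Ccn1, minus strand) and chr9:102717554-102717803 (Amotl2, plus strand).
Ankrd1: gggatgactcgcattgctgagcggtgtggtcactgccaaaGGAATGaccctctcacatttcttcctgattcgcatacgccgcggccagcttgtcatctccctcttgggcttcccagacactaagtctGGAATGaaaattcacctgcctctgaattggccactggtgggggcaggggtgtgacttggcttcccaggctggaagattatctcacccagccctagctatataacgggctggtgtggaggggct
Cyr61: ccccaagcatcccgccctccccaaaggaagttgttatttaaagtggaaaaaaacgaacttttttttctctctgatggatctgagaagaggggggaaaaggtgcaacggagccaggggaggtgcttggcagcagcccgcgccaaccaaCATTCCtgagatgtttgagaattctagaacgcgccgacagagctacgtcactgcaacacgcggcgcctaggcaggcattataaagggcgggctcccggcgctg
Amotl2: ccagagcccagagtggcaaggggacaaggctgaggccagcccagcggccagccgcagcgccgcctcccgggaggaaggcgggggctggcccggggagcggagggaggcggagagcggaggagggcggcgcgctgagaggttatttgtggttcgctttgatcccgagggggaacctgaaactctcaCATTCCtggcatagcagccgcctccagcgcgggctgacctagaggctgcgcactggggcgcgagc

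The Ankrd1 window held GGAATG at 2 places, starting 210 and 123 bases before the gene's start, which 1.02% of all promoters in the table matched or exceeded in number. The Cyr61 and Amotl2 windows held it once each on the other strand, 103 and 65 bases before the start. It also occurred 141 bases before the start of Yap1, and 136 and 170 bases before the 2 listed starts of Wwtr1, which mark the same site. The Tead2 window did not hold these letters. In the GENCODE M21 annotation (GRCm38), Ankrd1 spans chr19:36111961-36120099 and Amotl2 spans chr9:102716672-102733418. Their windows thus lie inside the genes of that annotation, whose starts differ from the RefSeq starts used here. A match in such a window is no evidence of binding.

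Of the 4 targets, Ctgf had the lowest level in slow MEF relative to bulk MEF. It was at 13.3, 11.9, 13.7 and 9.13 CPM in iPS, 13.3, 11.3, 8.63 and 13.5 CPM in fast MEF, 50.6, 63.1, 25.6 and 37.1 CPM in slow MEF, and 729, 589, 669 and 706 CPM in bulk MEF. Fast, slow and bulk MEF did not overlap, while fast MEF and iPS did. Mean Ctgf was thus 1.79% of the bulk MEF level in iPS, 1.74% in fast MEF and 6.56% in slow MEF. It fell in slow against bulk MEF (-3.90 ± 0.30, adjusted p = 3.57e-05), in fast against slow MEF (-2.06 ± 0.38, adjusted p = 0.00262) and in fast against bulk MEF (-5.94 ± 0.24, adjusted p = 2.29e-07). In iPS it fell against bulk MEF (-5.84 ± 0.26, adjusted p = 1.28e-06) and was at 0.04 ± 0.37 against fast MEF (adjusted p = 0.947), which does not show the levels to be alike. With all 24 libraries in 1 fit, the adjusted p in fast against slow MEF was 0.0746.

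Ankrd1 fell at the same steps. Its level was 5.15, 0.619, 0 and 0.16 CPM in iPS, 0.726, 1.61, 0 and 0 CPM in fast MEF, 17.4, 5.02, 18.5 and 31.2 CPM in slow MEF, and 165, 129, 114 and 132 CPM in bulk MEF. Fast MEF held 26 counts in all and iPS 43, of which 34 were in iPS replicate 1. Slow MEF lay below bulk MEF without overlap, and fast MEF below slow MEF. Ankrd1 fell in slow against bulk MEF (-2.87 ± 0.48, adjusted p = 0.00435), in fast against slow MEF (-5.03 ± 1.17, adjusted p = 0.00823) and in fast against bulk MEF (-7.85 ± 0.90, adjusted p = 0.000117). It also fell in iPS against bulk MEF (-6.71 ± 1.24, adjusted p = 0.00156), with a value of -9.23 without iPS replicate 1. Without fast MEF replicate 2 the fast MEF values were -6.17 against slow and -8.94 against bulk MEF. With all 24 libraries in 1 fit, the adjusted p in slow against bulk MEF was 0.277. Fitted values of so few counts depend on the prior count. It was too low to test in iPS against fast MEF, and entered the other fits with fast MEF or iPS through its level in slow or bulk MEF. Muscle cells also express Ankrd1. The summed level of 6 muscle markers was 25.9 to 392 CPM in iPS, 1.63 to 3.21 CPM in fast MEF, 0.729 to 13.2 CPM in slow MEF and 12.6 to 60.0 CPM in bulk MEF. In bulk MEF 4 of these markers, Actc1, Tnnt2, Myh3 and Des, had counts, while Myog and Myod1 had none. The part of muscle markers in the Ankrd1 level was not tested.

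Cyr61 fell in smaller steps. It was at 28.5, 79.7, 34.5 and 20.9 CPM in iPS, 216, 319, 205 and 231 CPM in fast MEF, 591, 894, 518 and 566 CPM in slow MEF, and 1000, 964, 868 and 1070 CPM in bulk MEF. Slow MEF replicate 2 overlapped with bulk MEF, and no other neighbouring pair of these groups overlapped. Mean Cyr61 was 4.19% of the bulk MEF level in iPS, 24.9% in fast MEF and 65.8% in slow MEF. The change in slow against bulk MEF was -0.58 ± 0.21 (adjusted p = 0.102), which passed without slow MEF replicate 2 (-0.77, adjusted p = 0.0459). Cyr61 fell in fast against slow MEF (-1.55 ± 0.24, adjusted p = 0.000881), in fast against bulk MEF (-2.10 ± 0.19, adjusted p = 2.56e-05), in iPS against fast MEF (-2.57 ± 0.41, adjusted p = 0.000978) and in iPS against bulk MEF (-4.61 ± 0.43, adjusted p = 2.97e-05).

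In iPS, Amotl2 was the target nearest to its bulk MEF level. Its level was 51.5, 70.3, 57.3 and 77.2 CPM in iPS, 151, 86.8, 116 and 132 CPM in fast MEF, 229, 235, 206 and 180 CPM in slow MEF, and 277, 323, 355 and 237 CPM in bulk MEF. None of these groups overlapped with its neighbour. Means were 21.5% of the bulk MEF level in iPS, 40.8% in fast MEF and 71.2% in slow MEF. Amotl2 was at -0.46 ± 0.22 in slow against bulk MEF (adjusted p = 0.217). It fell in fast against slow MEF (-0.94 ± 0.24, adjusted p = 0.0134), in fast against bulk MEF (-1.38 ± 0.25, adjusted p = 0.00199), in iPS against fast MEF (-0.94 ± 0.26, adjusted p = 0.017) and in iPS against bulk MEF (-2.25 ± 0.26, adjusted p = 0.000103). All 4 calls were lost with all 24 libraries in 1 fit (adjusted p from 0.107 to 0.647).

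Per kilobase the 4 targets summed to 39.7 ± 13.5 CPM in iPS, 152 ± 21.9 in fast MEF, 390 ± 89.1 in slow MEF and 859 ± 50.1 in bulk MEF (SD, n = 4 each). By group mean Cyr61 was the largest part in each of these groups, with 47.8% ± 13.7 in iPS, 78.6% ± 5.72 in fast MEF, 81.0% ± 2.74 in slow MEF and 56.2% ± 2.5 in bulk MEF. In iPS Amotl2 made up 38.5% ± 12.4, and in iPS replicate 4 it exceeded Cyr61 (55.8% against 33.4%). Ctgf made up 11.6% ± 3.46 in iPS, 2.79% ± 0.568 in fast MEF, 4.0% ± 0.873 in slow MEF and 28.2% ± 1.81 in bulk MEF.

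The fibroblast marker sums were lower in fast MEF, as given above, while in slow MEF, where Ctgf and Ankrd1 fell against bulk MEF, their sum lay above that of every bulk MEF library. The sum of 7 macrophage markers was 5.01 to 29.3 CPM in fast MEF, 2.12 to 107 CPM in slow MEF and 181 to 289 CPM in bulk MEF. The part of these markers in the target levels was not tested.

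**Figure D3:**
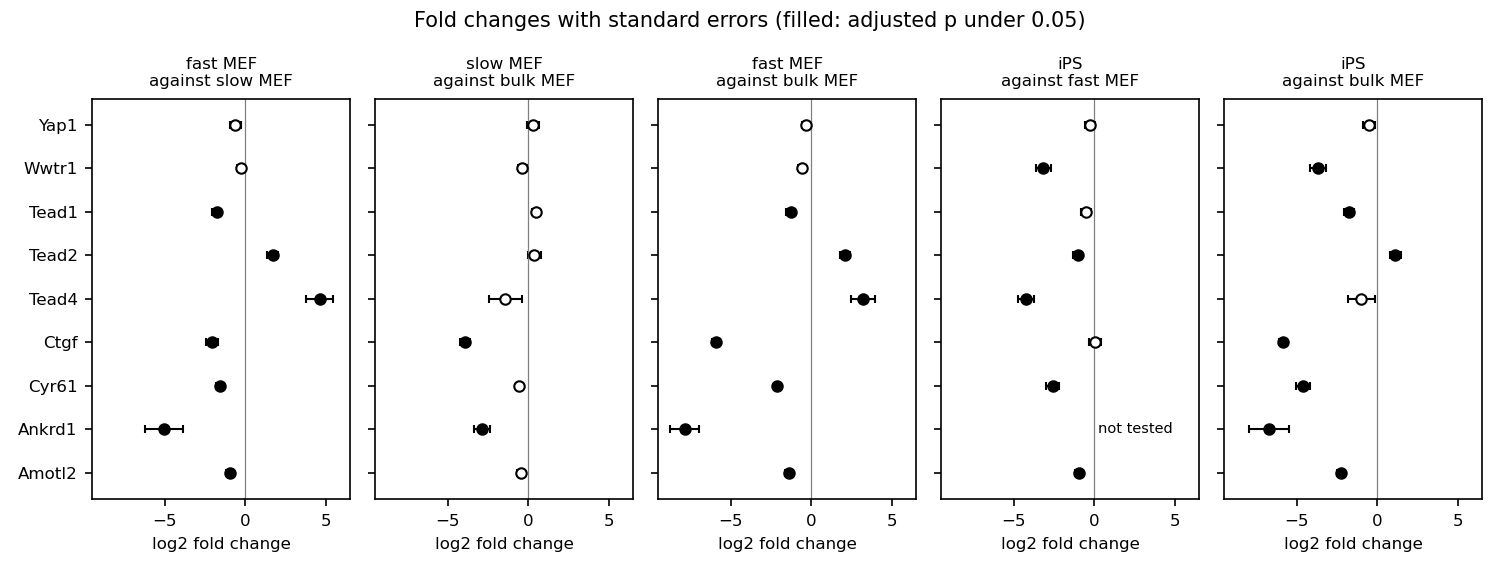
Log2 fold changes of the 9 genes (points) with their standard errors (bars) in 5 comparisons of 4 against 4 libraries; filled points passed an adjusted p of 0.05. The targets lie left of 0 where they passed, Tead2 and Tead4 lie right of it in both comparisons of fast MEF, and Yap1 is open throughout.

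Set against all genes, the counts were as follows. Ankrd1, among the lower members, entered its fits with fast MEF or iPS through slow or bulk MEF, as given above. Tead4, among the higher members, entered fast against slow MEF through fast MEF. In fast against slow MEF, Tead2 and Tead4 were higher and 5 members lower, where 14.4% of 11742 genes tested were called higher and 17.3% lower. In slow against bulk MEF, Ctgf and Ankrd1 were lower and no member was called higher by edgeR, where 4.99% of genes were called lower and 5.51% higher. In fast against bulk MEF, the same 2 and 5 members as in fast against slow MEF were called in the same directions, against a background of 16.5% higher and 18.4% lower. In iPS against bulk MEF, Tead2 was higher and 6 members lower, where 24.1% of genes were called higher and 23.3% lower. In iPS against fast MEF, 8 members could be tested and 5 of these were lower, where 19.7% of genes were called lower and 18.8% higher. By libraries without overlap, 2 members were higher and 5 lower in fast against slow MEF (14.3% and 13.3% of genes), 0 higher and 3 lower in slow against bulk MEF (8.94% and 7.06%), and 2 higher and 6 lower in fast against bulk MEF (15.9% and 14.1%). In iPS, 1 was higher and 6 lower against bulk MEF (22.3% and 17.9% of genes), and 0 higher and 5 lower against fast MEF (16.3% and 15.8%). The comparisons with bulk MEF share the same 4 control libraries. Over all genes tested the median log2 fold change was -0.11 in fast against slow MEF and 0.10 in iPS against bulk MEF.

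GMP held few counts of these RNAs. Summed over libraries, fast GMP had 54 counts of Yap1, 9 of Wwtr1, 39 of Tead1, 34 of Tead2, 9 of Tead4, 52 of Ctgf, 31 of Cyr61, 8 of Ankrd1 and 60 of Amotl2. Slow GMP had 3 counts of Yap1, 6 of Wwtr1, 33 of Tead1, 1 of Tead2, 39 of Tead4, 5 of Ctgf, 10 of Cyr61, 21 of Ankrd1 and 16 of Amotl2. Fast GMP replicate 1 alone gave 53 of the Yap1 and 58 of the Amotl2 counts. All 9 members were lower in GMP than in bulk MEF by edgeR, where 9.79% of 12170 genes tested were called lower and 11.5% higher. Cyr61, for example, was at 2.31 ± 1.31 CPM in fast GMP (SD, n = 5), 1.32 ± 0.645 CPM in slow GMP (n = 3) and 975 ± 83.7 CPM in bulk MEF (n = 4), with a log2 fold change of -9.02 ± 0.65 (adjusted p = 4.19e-07). All 9 entered this fit through their level in bulk MEF. Against the other groups GMP was not always lower: Tead4 was at 5.2 ± 2.78 CPM in slow GMP (n = 3), which overlapped with 5.92 ± 5.95 CPM in slow MEF (n = 4). Ankrd1 was at 2.49 ± 3.54 CPM in slow GMP, which overlapped with iPS and fast MEF. Over all genes tested the median log2 fold change was 0.18. Yap1 was at -6.35 ± 1.36 (adjusted p = 0.00496), and at -8.53 without fast GMP replicate 1.

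Tead4 had the highest adjusted p of the 9, at -2.97 ± 0.98 in GMP against bulk MEF (adjusted p = 0.0413) and at -1.49 (adjusted p = 0.388) without bulk MEF replicate 4. It missed the threshold without any one of bulk MEF replicates 1, 2 and 3, slow GMP replicates 1, 2 and 3, or fast GMP replicate 2 as well (adjusted p from 0.0521 to 0.0791). It also missed it with DESeq2 size factors (adjusted p = 0.0552), with no filter on low counts (adjusted p = 0.0721) and with the replicate block (adjusted p = 0.226). Tead4 counts were 4, 2, 0, 2 and 1 in the fast GMP libraries, against 14, 8 and 17 in the slow GMP libraries, which did not overlap with them in CPM, as in 1.49% of genes. Only Ctgf was abundant enough to test in fast against slow GMP (2.53 ± 1.76, adjusted p = 0.742). No gene passed in that comparison by edgeR (0%), while 742 of 10057 had an unadjusted p under 0.05 and DESeq2 called 97.

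The interaction of gate and cell type asked whether fast against slow differed between MEF and GMP. Tead4 was too low to test within GMP and entered this fit through its level in fast MEF. Its value was 7.51 ± 1.35 on the log2 scale (adjusted p = 0.011, and 0.00687 with no filter on low counts), where 0.601% of 13814 genes were called in this direction and 0.796% in the other. No other member passed in this edgeR fit, and the median over all genes was -0.33. Ctgf was at -4.64 ± 1.57 (adjusted p = 0.111) and Cyr61 at -2.37 ± 0.80 (adjusted p = 0.11), and DESeq2 called both (adjusted p = 0.00483 for Ctgf and 0.0165 for Cyr61). With all 24 libraries in 1 edgeR fit, Ctgf passed too (-4.57, adjusted p = 0.0184), while Cyr61 did not (adjusted p = 0.0511). Without slow MEF replicate 3 the Tead4 value was 8.29. The GMP side rests on the few counts given above.

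Other genes of the pathway were taken from 4 lists, described by counts beside the shares over all genes. Of 36 Hippo pathway regulators, 34 were tested in fast against slow MEF, 6 were higher and 7 lower, where 14.4% of all genes were called higher and 17.3% lower. Their median log2 fold change was -0.22, beside -0.11 over all genes, and the genes below are named as single results. Wwc1, which encodes the upstream scaffold KIBRA, averaged 107 ± 20.9 CPM in fast MEF, against 1.59 ± 1.44 CPM in slow MEF (5.90 ± 0.67, adjusted p = 0.000182). Slow MEF held 69 counts of Wwc1 in all, and Wwc1 entered this fit through its level in fast MEF. Nf2, which encodes Merlin, an activator of the kinases, rose by 1.91 ± 0.31 (adjusted p = 0.00128). The large cadherin genes Fat4 (-5.19 ± 0.69, adjusted p = 0.000432) and Dchs1 (-4.62 ± 0.50, adjusted p = 0.000134) fell, as did Frmd6 (-2.64 ± 0.33, adjusted p = 0.000278). Fat4, with 112 counts in all of fast MEF, entered this fit through its level in slow MEF. Lats1 and Lats2, the kinases that phosphorylate YAP, were at 0.34 ± 0.37 and 0.30 ± 0.39 in this comparison (adjusted p = 0.527 and 0.585). These 2 were picked after their values were seen.

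In slow against bulk MEF, only Fat4 (2.41 ± 0.60) and Jub, the gene of the LIM protein Ajuba (-1.32 ± 0.38), were called of the 34 regulators tested, where 5.51% of all genes were higher and 4.99% lower. In fast against bulk MEF 9 were higher and 9 lower, where the shares over all genes were 16.5% and 18.4%. Frmd6 (-3.52 ± 0.31), the TEAD cofactor Vgll3 (-3.37 ± 0.35) and the scaffold Rassf1 (-1.65 ± 0.29) led the falls by adjusted p. In iPS against bulk MEF 2 were higher and 14 lower (24.1% and 23.3% over all genes), with a median of -1.17 beside 0.10 over all genes. Vgll3 (-5.77 ± 0.59) was among the 3 falls with the smallest adjusted p. In iPS against fast MEF 4 were higher and 16 lower (18.8% and 19.7% over all genes), with a median of -1.45 beside 0.00 over all genes. Lats1 was among those that fell (-3.21 ± 0.44, adjusted p = 0.000427).

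The 22 further Yap targets split in both directions. In fast against slow MEF 5 were higher, 9 lower and 8 not past the threshold (14.4% higher and 17.3% lower over all genes), with a median of -0.43 beside -0.11. Axl, a receptor tyrosine kinase, was at 32.3 ± 13.4 CPM in fast MEF, 186 ± 51.5 CPM in slow MEF and 425 ± 62.4 CPM in bulk MEF (SD, n = 4 each). It fell in fast against slow MEF (-2.65 ± 0.38, adjusted p = 0.000678) and in slow against bulk MEF (-1.16 ± 0.25, adjusted p = 0.0145). Igfbp3 rose in slow against bulk MEF, where Ctgf fell, with 224 ± 64.1 CPM in slow MEF and 5.14 ± 1.52 CPM in bulk MEF (5.47 ± 0.38, adjusted p = 1.87e-05). In fast against slow MEF Igfbp3 fell, as did Ctgf, to 10.1 ± 5.77 CPM in fast MEF (-4.63 ± 0.53, adjusted p = 0.000188). Nt5e, the ectonucleotidase CD73, was at 36.5 ± 7.26 CPM in fast MEF, 4.54 ± 1.47 CPM in slow MEF and 0.481 ± 0.218 CPM in bulk MEF. It rose by 2.85 ± 0.41 in fast against slow MEF and by 3.23 ± 0.74 in slow against bulk MEF. Bulk MEF held 20 counts of Nt5e in all, so Nt5e entered the fit against bulk MEF through its level in slow MEF. The cyclin gene Ccnd1 rose in fast against slow MEF (2.62 ± 0.30, adjusted p = 0.000173).

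In slow against bulk MEF, 2 further targets were higher and 4 lower of 22, where 5.51% of all genes were higher and 4.99% lower. In fast against bulk MEF 5 were higher and 7 lower of 22, beside 16.5% and 18.4% of all genes. In iPS against bulk MEF 2 were higher and 13 lower of 21, beside 24.1% and 23.3% of all genes, with a median of -2.91. Fjx1 fell in fast against bulk MEF (-8.20 ± 1.01), with 9 counts in all of fast MEF, and entered this fit through its level in bulk MEF. Contractile and SRF genes are known to share serum and stiffness responses with Ctgf and Cyr61, and the part of such responses here was not tested. In this list 6 of 11 fell in fast against slow MEF and 8 of 11 in slow against bulk MEF. In fast against bulk MEF 8 of 11 fell, and in iPS against bulk MEF 9 of 11. Over all genes 17.3%, 4.99%, 18.4% and 23.3% were lower in these comparisons. Their median was -1.91 in slow against bulk MEF beside 0.03 over all genes, and Acta2, smooth muscle actin, was at 1730 ± 232 CPM in slow MEF and 7970 ± 1170 CPM in bulk MEF (-2.17 ± 0.17, adjusted p = 3.57e-05).

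**Figure D4:**
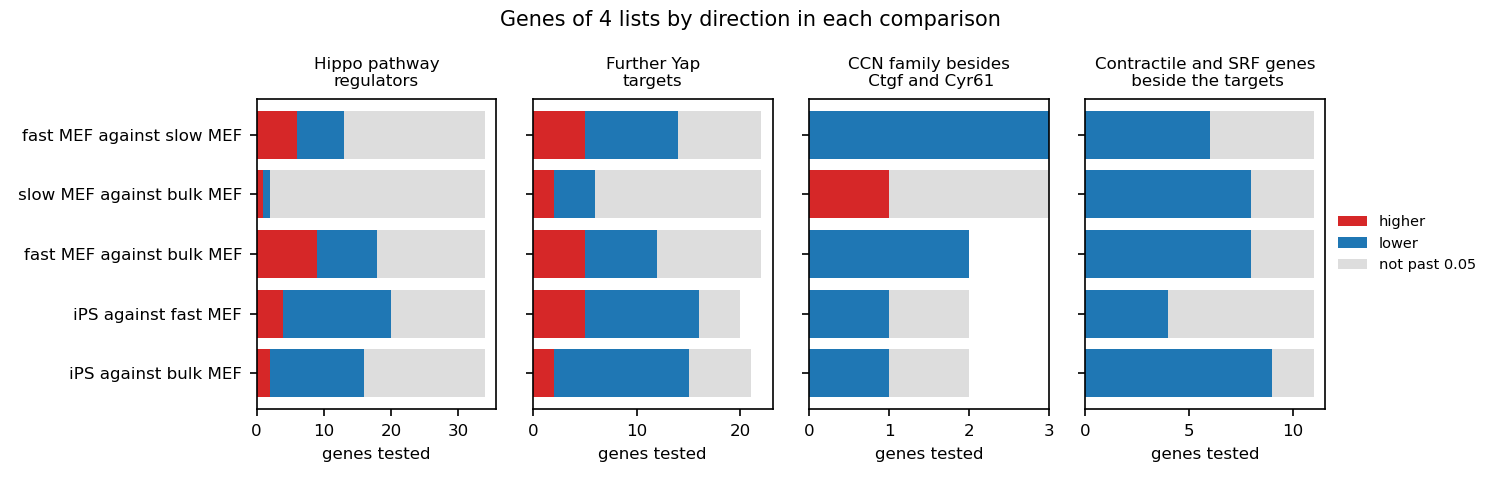
Number of genes tested in each of 4 lists that were higher (red), lower (blue) or not past an adjusted p of 0.05 (grey) in 5 comparisons. The contractile list has no red part in these comparisons, while Hippo regulators and further Yap targets split in both directions.

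The genes most like each member over the 24 libraries were sought by Pearson r of log2 CPM among 6069 genes with a mean of at least 20 CPM, as a description over points that share the gap between GMP and the other groups. Cyr61 was most like Rhoc (r = 0.984) and Serpinh1 (r = 0.984), and over the 16 MEF and iPS libraries alone both stood at 0.967. Wwtr1 was most like Rhoc too (r = 0.974, and 0.957 over the 16). Ctgf was most like Gadd45g (r = 0.928, and 0.898 over the 16) and then Copa (r = 0.915, and 0.806 over the 16). Ankrd1 was most like Csf1 (r = 0.913, and 0.951 over the 16). Tead4 was most like the integrin gene Itga6 (r = 0.836, and 0.777 over the 16). For Yap1, Akap12 had r = 0.974 over all 24 libraries and -0.00304 over the 16.

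Coordinates were not in the count table. In GENCODE M21 on GRCm38, Ctgf (annotated as Ccn2) lies at chr10:24595442-24598683 on the plus strand, Tead4 at chr6:128224288-128300823 on the minus strand and Yap1 at chr9:7931999-8004596 on the minus strand. In that annotation Yap1 shares 116 exonic bases with Gm20416, Ctgf 347 with Gm15270 and Tead2 13 with Cd37, each on the opposite strand. No source used here gives the strand setting of the counting, so reads from these partners could not be told apart in the shared bases.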

How the data were processed

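RNA was measured in 24 mouse libraries, grouped by their titles. The submitters' processing notes name mouse build mm9, HTSeq, TopHat2 2.0.4 and CASAVA 1.8.2, with no roles. No source used here gives the annotation or strandedness. The values the authors deposited are unnormalized whole read counts, with 1 line for each symbol. Per the labels' protocols, oligo-dT primed cDNA from 1000 sorted cells was amplified. Amplified reads are not independent molecules, so counting error understates the spread. All 37 within-group library pairs differed beyond sampling noise (lowest chi-square per degree of freedom 48.7).

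Each comparison was fitted on all genes with edgeR 4.0.16 in R 4.3.3 (quasi-likelihood F test, robust, TMM, filterByExpr, Benjamini-Hochberg, threshold 0.05, two-sided), with only the groups compared and no block. Standard errors are the absolute log2 fold change divided by the square root of F. For GMP against bulk MEF the mean of both GMP groups was used. Levels are CPM with TMM factors over all 24 libraries, drawn with matplotlib 3.10.9. Levels per kilobase used the union of exons in GENCODE M21 (GRCm38 basic set), which may differ from the annotation counted. Promoters came from RefSeq (GRCm38.p6).

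All 9 members were named in every comparison, up to 3 genes per list and direction by adjusted p, and up to 3 most alike genes per member; some items are not reported here. Of 36 Hippo regulators, 22 further targets, 4 CCN and 11 contractile genes all matched a symbol, Ajuba as Jub. Lats2, Ptpn14 and Jub count in both the regulator and the further target list, and Tead3 counts among the regulators. The members and lists were chosen with earlier results of these data known. The fits were tested on simulated data. Alternatives were DESeq2 size factors, no filter on low counts, DESeq2 1.42.0, all 24 libraries in 1 fit, leaving out Rn45s and Lars2, a replicate block, and leaving out each library.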

Additional observations from a re-analysis of the deposited data

Results flagged for a closer look

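Among 45 sets of 4 or 5 libraries of 1 member in 1 group, 5 had a library far from the others by a gap test at 95%. Chance gives this in about 5% of sets if values are normally distributed, which does not hold for sets with mostly 0 counts. Tead4 stood at 48.2 CPM in bulk MEF replicate 4, against 4.07 to 6.85 CPM in the other bulk MEF libraries. Ankrd1 stood at 5.15 CPM in iPS replicate 1, from 34 counts, against 0 to 0.619 CPM in the other iPS libraries. Fast GMP replicate 1, the library with counts in the most genes, gave the other 3: Yap1 at 15.2 CPM (53 counts; 0 to 0.738 CPM in the other fast GMP libraries), Amotl2 at 16.6 CPM (58 counts; 0 to 0.673 CPM) and Ankrd1 at 2.01 CPM (7 counts; 0 to 0.382 CPM).

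The interaction test set the fast against slow difference of Tead4 in MEF against that in GMP, at 7.51 on the log2 scale (adjusted p = 0.011 by edgeR). In MEF it rests on 6283 counts in the fast and 218 in the slow gate, and in GMP on 9 in the fast and 39 in the slow gate. Tead4 was too low to be tested within GMP and entered the interaction through fast MEF.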

How the results depend on the processing

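Every member called by edgeR kept its direction under every alternative tried. With all 24 libraries in 1 fit, whose spread includes that of GMP, fewer members passed: in fast against slow MEF 1 higher and 2 lower, in slow against bulk MEF 1 lower, in fast against bulk MEF 3 lower, in iPS against bulk MEF 0 higher and 4 lower, and in iPS against fast MEF 3 lower, and Ctgf was then lower in the interaction (1 lower). The calls lost were those of Tead1, Tead2, Ctgf, Ankrd1 and Amotl2 given with the results. All-gene counts in that fit were 1246, 56, 1513, 3170 and 1675 in these comparisons (main 3726, 1181, 3958, 5566 and 4568), 385 in fast against slow GMP (0), 5040 in GMP against bulk MEF (2594) and 1069 in the interaction (193). DESeq2 called 1977 genes in slow against bulk MEF, 97 in fast against slow GMP and 1563 in the interaction, with 2 members lower there.

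No label says what the replicate numbers share, and same-numbered libraries correlated between -0.0544 and 0.0773 in their deviations, so they were not taken as pairs, nor did each correlate best with its own number. With the replicate block, iPS against bulk MEF had 0 members higher, GMP against bulk MEF 8 lower and the interaction 92 genes. The block changed the all-gene count elsewhere by under 1.5 times. Wwtr1 in the interaction reversed with the block (0.06).

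Leaving out each library gave 759 to 998 genes in slow against bulk MEF, 0 to 1 members higher in iPS against bulk MEF, 1450 to 2822 genes in GMP against bulk MEF and 82 to 575 in the interaction. Of 608 member values without 1 library, 583 kept direction and call, and 13 changed sign, none of them called: over these fits Yap1 ranged from -0.15 to 0.44 and Tead4 from -2.21 to 0.08 in slow against bulk MEF, Tead4 from -1.30 to 0.48 in iPS against bulk MEF and Ctgf from -0.06 to 0.15 in iPS against fast MEF. In the interaction Yap1 ranged from -4.40 to 0.84, Wwtr1 from -1.93 to 0.34, Tead1 from -3.36 to 0.57 and Amotl2 from -4.13 to 2.43. The order of the 6 group means was the same for 8 of 9 members with DESeq2 size factors, for all 9 without Rn45s and Lars2, and for 6 to 9 without 1 library. Depth limits what GMP libraries show of these genes.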

Other observations

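The rest of the CCN family differed from Ctgf and Cyr61 in part. In fast against slow MEF all 3 that were tested fell, where 17.3% of all genes were lower. Wisp2 was among them (-3.84 ± 0.62, edgeR adjusted p = 0.00123). Wisp1, another matricellular relative, was at 3.14 ± 3.04 CPM in iPS, 83.4 ± 22.1 CPM in fast MEF, 553 ± 82.0 CPM in slow MEF and 587 ± 46.2 CPM in bulk MEF (SD, n = 4 each). It fell in fast against slow MEF (-2.88 ± 0.25, edgeR adjusted p = 4.41e-05) and in iPS against bulk MEF (-7.64 ± 0.88). Nov was at 144 ± 92.7 CPM in fast GMP (n = 5), 114 ± 52.4 CPM in slow GMP (n = 3) and 1.01 ± 1.34 CPM in bulk MEF (n = 4). It was higher in GMP than in bulk MEF by 7.09 ± 1.18 on the log2 scale (edgeR adjusted p = 0.000861), where Ctgf and Cyr61 were lower. Within MEF it was at 0.402 ± 0.439 CPM in fast, 17.9 ± 6.52 CPM in slow and 1.01 ± 1.34 CPM in bulk MEF. It rose by 4.18 ± 0.93 in slow against bulk MEF (adjusted p = 0.0169) and fell in fast against slow MEF (-5.52 ± 0.86, adjusted p = 0.00105). Nov entered each of these fits through the group where its level was higher. The same held for Wisp2 in fast against slow MEF and for Wisp1 in iPS against bulk MEF.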
